A study of Homo sapiens with 4 samples.

Results

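Aldo-keto reductase genes of A549 cells, a human line derived from a lung adenocarcinoma, were followed on each side of their polyadenylation site (PAS) after UV. AKR1B1, AKR1B10, AKR1C1, AKR1C3 and AKR1C4 were taken by gene symbol from the deposited table, which made 5 of its 4208 genes. Nuclear RNA depleted of ribosomal RNA was sequenced from strand-specific libraries of cells taken 16 h after irradiation with UVC (254 nm at 40 J/m2; UV+, n = 2), and of cells that were not irradiated (UV−, n = 2). Both conditions are the same cell line, and the methods describe the replicates as independent biological ones. Each gene has 1 count of reads in the 500 nt before its PAS (upstream window, total RNA) and 1 in the 500 nt after it (downstream window, RNA not cleaved at the PAS), so that a lower downstream/upstream ratio stands for less uncleaved RNA per total RNA. The authors kept only genes that reached a minimum number of reads in both windows in either condition (the read minimum). They left out genes whose downstream region overlaps another gene, and all genes below stands for the genes of this table.

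Aldo-keto reductases are NADPH-dependent enzymes that reduce aldehydes and ketones to alcohols. The AKR1B genes act on sugars, retinals and lipid aldehydes, and the AKR1C genes on steroids and prostaglandins. Several members also reduce anthracyclines such as daunorubicin, and high levels of AKR1B10 and of AKR1C genes are known from lung tumors and from cells with active NRF2, the transcription factor of the antioxidant response.

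The AKR1B genes lie on chromosome 7 and the AKR1C genes on chromosome 10 of hg19 (GRCh37). In the table AKR1B1 spans chr7:134127107-134143888 on the minus strand. The others are on the plus strand, AKR1B10 at chr7:134212344-134226166, AKR1C1 at chr10:5005454-5020158, AKR1C3 at chr10:5090958-5149878 and AKR1C4 at chr10:5238798-5260910. The 30 nt that hold the polyadenylation hexamer of each row are shown because they mark where a row places its PAS, on which both windows depend. They come from the GRCh37 assembly and read 5′ to 3′ on the strand of the gene, with the hexamer in capitals, and end at the PAS except in AKR1C1, where they end 5 nt before it.
AKR1B1 (chr7:134127107-134127136, minus strand): tttgcctcaAATAAAaagtgcttttgtgag
AKR1B10 (chr7:134226137-134226166): cAATAAAaaaaataataatcataaccaaca
AKR1C1 (chr10:5020124-5020153): aaATTAAAtgctctctcctaaagattcttc
AKR1C3 (chr10:5149849-5149878): agacAATAAAtttttatcattttgaaataa
AKR1C4 (chr10:5260881-5260910): agcaaacatAATAAAtttttatcttgaagt
AATAAA began 21 nt before the PAS in AKR1B1 and AKR1C4, 26 nt before it in AKR1C3 and 29 nt before it in AKR1B10. AKR1C1 stood apart, with ATTAAA at 33 nt and no AATAAA in the last 100 nt. Its distance depends on the PAS of the table, which lay 16 nt from the nearest annotated end of AKR1C1. In the other members the nearest annotated end was 0 to 2 nt away. The stretch tcattttgaaa, which AKR1C1 and AKR1C3 share, began 46 nt before the PAS of AKR1C1 and 14 nt before that of AKR1C3. Of 4205 rows with a usable position, 58.0% held AATAAA and 18.5% ATTAAA on the sense strand in the last 50 nt before the PAS.

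The windows also differed in what they contain. Annotated exons of the gene itself (GENCODE 44) covered 415 of the 500 upstream nt in AKR1B1, 366 in AKR1B10, 267 in AKR1C1, 230 in AKR1C4 and 226 in AKR1C3, and the rest of each upstream window was intron. Downstream, they covered 0 nt in AKR1B1, AKR1B10 and AKR1C3 and 2 nt in AKR1C4. In AKR1C1 they covered all 500 nt, since a longer annotated transcript of this gene ends 5317 nt beyond the PAS of the table. The AKR1C1 windows also had near-copies in AKR1C2, a neighboring gene without a row in the table, with 97.6% identity upstream (chr10:5031965-5032463) and 99.2% downstream (chr10:5031465-5031964). Of the 401 stretches of 100 nt, the shortest read kept, 114 upstream and 300 downstream stretches of AKR1C1 occurred unchanged elsewhere in the genome. With up to 2 mismatches these numbers were 207 and 401. In AKR1B10, AKR1C3 and AKR1C4 no stretch of either window had such a second place, and in AKR1B1 3 upstream stretches did. Reads that fit several places get a low mapping quality, and the values of AKR1C1 are therefore uncertain. How many of its reads the mapping-quality filter removed was not tested.

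**Figure D1:**
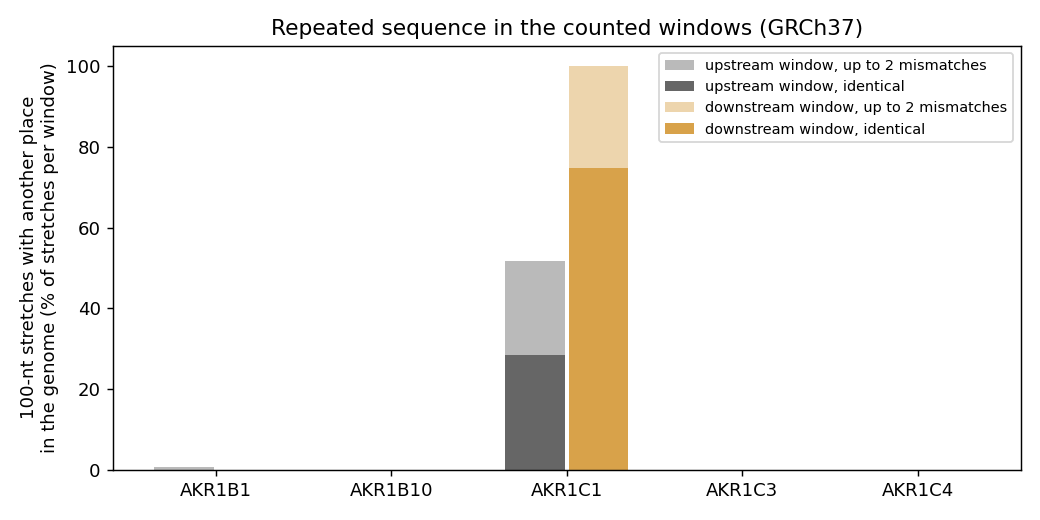
Share of the 401 stretches of 100 nt in each 500-nt window (bars, % of stretches) that occur again in the GRCh37 genome, without a mismatch (dark) or with up to 2 (light), for the 5 genes on the x axis. AKR1C1 reached 28.4% and 51.6% upstream and 74.8% and 100% downstream, where the other genes were at or near 0.

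The 4 libraries held 262657 to 481798 upstream and 50814 to 92566 downstream reads in these windows, and the values were divided by 1 size factor per library (0.719 to 1.23). Changes are log2 values of UV+ against UV−. Their median over all genes was −0.24 upstream, 0.24 downstream and 0.38 in the ratio, to which the changes below can be referred. KRT18, the only one of 5 epithelial markers with a row, had 258 to 974 upstream reads and a log2 change of −1.53 upstream (adjusted p = 0.00030, limma), and 0 of 9 markers of blood, fibroblasts and endothelium had a row. A missing row does not show missing RNA, since a row needs reads on both sides of the PAS and no overlapping gene downstream.

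Among the genes of the table, AKR1C3 and AKR1B10 had some of the highest upstream reads in untreated nuclei. AKR1C3, which makes active androgens and prostaglandin F, had 4411 and 5076 normalized upstream reads and ranked 6 and 5 of all genes. AKR1B10, which reduces retinals and other aldehydes, had 3280 and 3589 and ranked 9 and 8. AKR1C1, a hydroxysteroid dehydrogenase that inactivates progesterone, had 536 and 619, and AKR1B1, the aldose reductase of the polyol pathway, had 227 and 297. AKR1C4, a hydroxysteroid dehydrogenase of the liver that takes part in bile acid synthesis, had 6.96 and 4.10, from 5 reads in each library. No neighbors in this order of levels overlapped in UV−. All windows have the same length, but their exonic part ranged from 226 nt in AKR1C3 to 415 nt in AKR1B1. The order therefore compares windows and not lengths of spliced RNA. Together the 5 genes took 2.31% and 2.57% of the upstream reads of the UV− libraries and 1.44% and 1.51% of those of the UV+ libraries.

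After UV the total RNA of AKR1C3 fell, while the other 4 members did not pass the test. In the UV+ libraries AKR1C3 had 2369 and 2190 normalized reads upstream, both below the values of UV−. Its log2 change was −1.05 (SE 0.20, adjusted p = 0.0019 over all genes, limma). With this 1 of 5 members was lower and 0 were higher at an adjusted p under 0.05, where 20.7% of all genes were lower and 11.7% higher. In these bulk extracts, less RNA per nucleus and fewer nuclei that hold the RNA cannot be told apart. A lower share of the counted reads and a lower amount of RNA cannot be told apart either, since values are scaled by 1 size factor per library. AKR1B10 had 2627 and 2532 in UV+, also without overlap, with a log2 change of −0.41 (SE 0.20, adjusted p = 0.12, limma), close to the median of all genes. AKR1B1 stood on the other side, with 342 and 410 in UV+ against 227 and 297, a log2 change of 0.53 (SE 0.22, adjusted p = 0.080, limma). AKR1C1 had 285 and 545 in UV+, so that its second UV+ library lay within the range of UV− and the first below it (−0.55, SE 0.27, adjusted p = 0.13, limma). AKR1C4 had 1.63 and 3.87, from 2 and 4 reads. Both UV+ libraries lay below both UV− libraries in AKR1B10, AKR1C3 and AKR1C4 (3 of 5 members, and 41.3% of all genes) and above them in AKR1B1 (1 of 5, and 28.1%). AKR1C4 met the read minimum only through UV−, which favors lower values in UV+. At an unadjusted p under 0.05, 1 member was lower and 1 higher (27.9% and 16.7% of all genes). The call of AKR1C3 was lost with limma without a variance trend (adjusted p = 0.074) and without any 1 library (adjusted p = 0.051 to 0.14, log2 change −1.16 to −0.95). Without UV+ replicate 2 AKR1C1 passed (−1.01, adjusted p = 0.039, limma), where it had −0.08 without UV+ replicate 1.

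**Figure D2:**
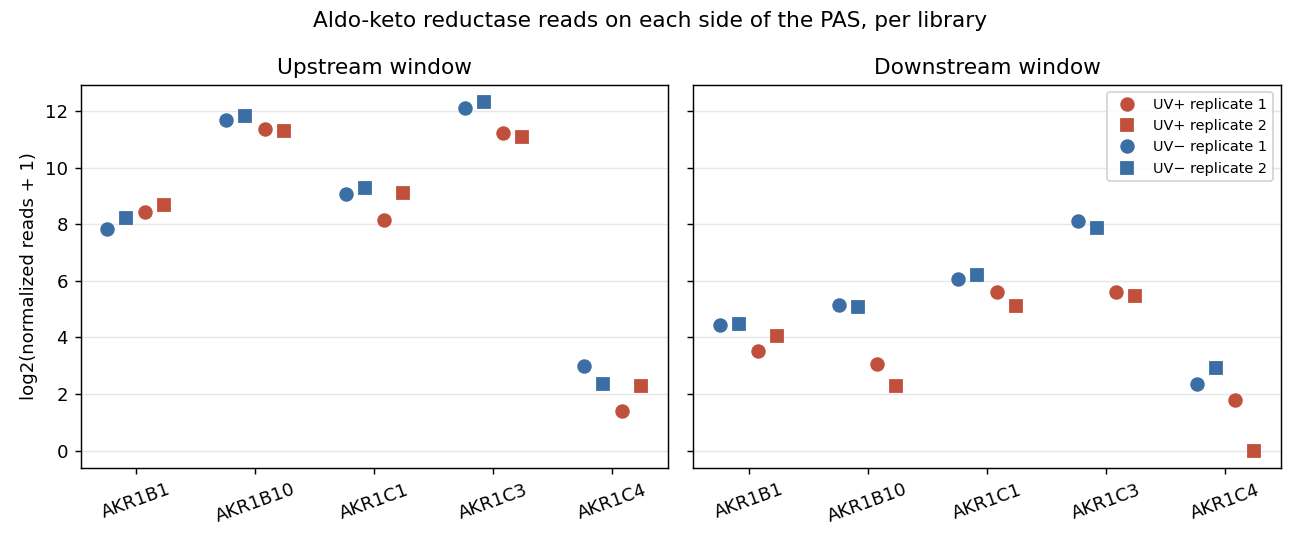
Normalized reads of the 5 genes (log2 of the value + 1, y axis) in the upstream and the downstream window, with 1 point per library (blue UV−, red UV+, circles replicate 1, squares replicate 2). Downstream, the UV+ points of all 5 genes lay below their UV− points, and for AKR1C3 they went from 277 and 235 to 48.0 and 43.5 normalized reads. AKR1C4 met the read minimum only through UV−.

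Downstream of the PAS, AKR1C3 and AKR1B10 lost most of their reads after UV. In the UV− libraries AKR1C3 had 277 and 235 normalized reads downstream (from 199 and 286 reads), against 48.0 and 43.5 in the UV+ libraries (from 59 and 45 reads). Its log2 change was −2.45 (SE 0.25, adjusted p = 0.00050, limma). AKR1B10 had 34.8 and 32.8 in UV− (25 and 40 reads) and 7.32 and 3.87 in UV+ (9 and 4 reads), with a log2 change of −2.45 (SE 0.51, adjusted p = 0.012, limma). These were 2 of 5 members lower and 0 higher, where 9.41% of all genes were lower and 11.7% higher by the same test. The other 3 members were also lower in both UV+ libraries than in both UV− libraries, as were 30.4% of all genes, and none of them passed. For AKR1C4 this was favored by the choice of genes, since it met the read minimum only through UV−. At an unadjusted p under 0.05, AKR1C1 was lower as well, which made 3 of 5 members (18% of all genes, and 21.2% higher). AKR1C1 had 66.8 and 72.2 in UV− and 48.0 and 33.9 in UV+ (−0.77, SE 0.31, adjusted p = 0.098, limma). AKR1B1 had 20.9 and 21.3 in UV− and 10.6 and 15.5 in UV+ (−0.68, SE 0.46, adjusted p = 0.29, limma). AKR1C4 had 3 and 8 reads in UV− and 3 and 0 in UV+ (−1.75, SE 0.87, adjusted p = 0.16, limma). Without any 1 library the adjusted p from limma was 0.065 to 0.10 for AKR1C3 and 0.083 to 0.23 for AKR1B10, so that both calls rest on all 4 libraries.

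Less of the RNA of AKR1B10 and AKR1C3 was uncleaved in UV+, with a downstream/upstream ratio lower by 4.11 and 2.64 times on the scale with the pseudocount. Of the reads in both AKR1B10 windows, the share that lay downstream was 1.05% (95% exact interval 0.680 to 1.55) and 0.906% (0.648 to 1.23) in the UV− libraries. In UV+ this share was 0.278% (0.127 to 0.527) and 0.153% (0.0416 to 0.390), and none of the UV+ intervals reached into those of UV−. These intervals cover counting error only. For AKR1B10 the log2 change of this ratio came to −2.04 (SE 0.65, unadjusted p = 0.0091, adjusted p = 0.26, limma), and it lay between −2.50 and −1.57 over the 4 pairs of a UV+ and a UV− library. AKR1C3 had a downstream share of 5.91% (5.13 to 6.76) and 4.42% (3.93 to 4.95) in UV− and of 1.99% (1.51 to 2.55) and 1.95% (1.43 to 2.60) in UV+. The 2 UV+ libraries were nearly alike, and both lay below both UV− libraries. Its log2 change was −1.40 (SE 0.34, unadjusted p = 0.0018, adjusted p = 0.20, limma).

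At the study's threshold, an unadjusted p under 0.05, 2 of 5 members were thus lower and 0 higher, where 2.4% of all genes were lower and 11% higher. At an adjusted p under 0.05, limma as used here called 0 of 5 members and 0.0238% of all genes lower, and edgeR also called 0 of 5. DESeq2 without a library term called AKR1B10 and AKR1C3 (adjusted p = 0.022 and 0.042), with 0.726% lower among the 1516 genes it gave an adjusted p, and DESeq2 with a library term called 0 of 5 (adjusted p = 0.11 and 0.23). Limma called AKR1C3 after a filter at a mean of 10 (adjusted p = 0.018) and AKR1B10 with a variance trend over the mean of both windows (adjusted p = 0.043). That trend was added after seeing the data. Over all genes, the filter gave 7 lower and 57 higher ratios and the trend 3 and 18, beside 1 and 6 in the main fit. Without UV− replicate 1 or 2 the call of AKR1B10 was lost (unadjusted p = 0.085 and 0.060, limma). The call of AKR1C3 was lost where limma used no variance trend (unadjusted p = 0.071) or a trend over the mean ratio (0.067).

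**Figure D3:**
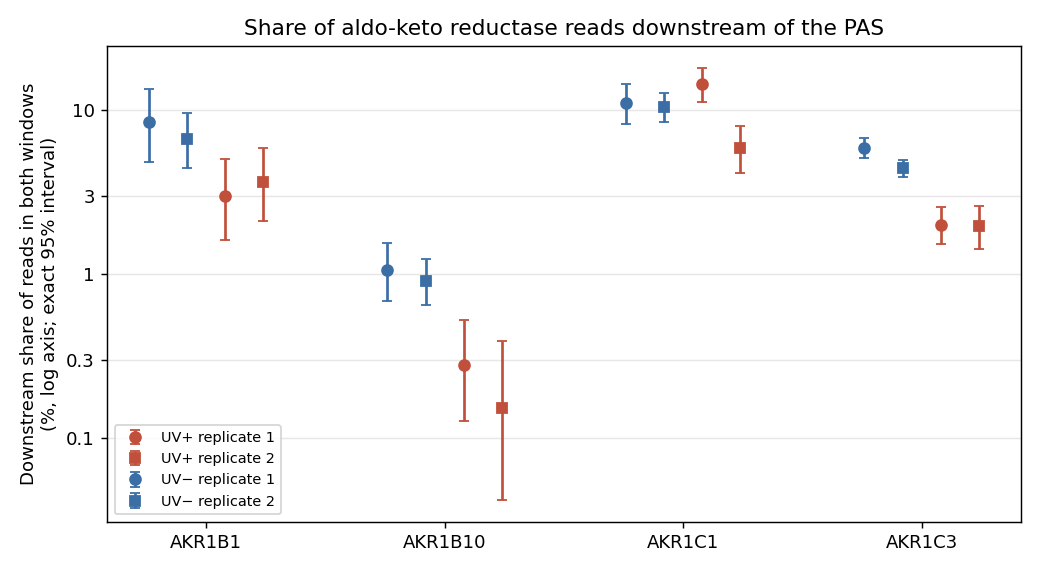
Reads downstream of the PAS as a percentage of the reads in both windows (y axis, log scale) for 4 genes, with 1 point per library and its exact 95% interval from counting error. AKR1B10 went from about 1% to 0.278% and 0.153% in the UV+ libraries, and AKR1C3 to 1.99% and 1.95%, while the UV+ libraries of AKR1C1 lay on both sides of the UV− ones. AKR1C4 is left out because it had 4 to 13 reads per library in both windows together.

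The other 3 members did not pass with limma. AKR1B1 had a downstream share of 8.43% and 6.70% in UV− and of 3.00% and 3.64% in UV+, so that the conditions did not overlap. Its log2 change of −1.21 (SE 0.60) had an unadjusted p of 0.069 from limma, and an unadjusted p of 0.039 with edgeR and 0.046 with DESeq2. With AKR1B10 and AKR1C3, this made 3 of 5 members whose UV+ ratios were both below both UV− ratios, as were those of 12.9% of all genes. AKR1C1 had 11.1% and 10.4% in UV− and 14.4% and 5.85% in UV+, with a log2 change of −0.22 (SE 0.51, unadjusted p = 0.67, limma). Its UV+ replicates differed more from each other than the conditions did, and its change was 0.49 without UV+ replicate 2 and −0.93 without UV+ replicate 1. AKR1C4 had 3 of 8 and 8 of 13 reads downstream in UV−, and 3 of 5 and 0 of 4 in UV+, where 0 of 4 allows a share of up to 60.2%. A change of its ratio was not detectable at this depth (log2 change −0.92, SE 1.11, unadjusted p = 0.43, limma), and its sign turned with 1 library, with 0.42 without UV+ replicate 2 and −2.26 without UV+ replicate 1. The median log2 change of the 5 members was −1.21 in the ratio, beside 0.38 over all genes, and is the value of AKR1B1. Their medians of −1.75 downstream and −0.55 upstream, beside 0.24 and −0.24 over all genes, are the values of AKR1C4, which rests on 3, 8, 3 and 0 reads, and of AKR1C1, which ranged from −1.01 to −0.08 when 1 library was left out. The downstream median is thus that of a gene that met the read minimum only through UV−. AKR1B10 ranked 89 and AKR1C3 262 of 4208 genes from the lowest log2 change of the ratio, and AKR1C1 ranked 1186.

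**Figure D4:**
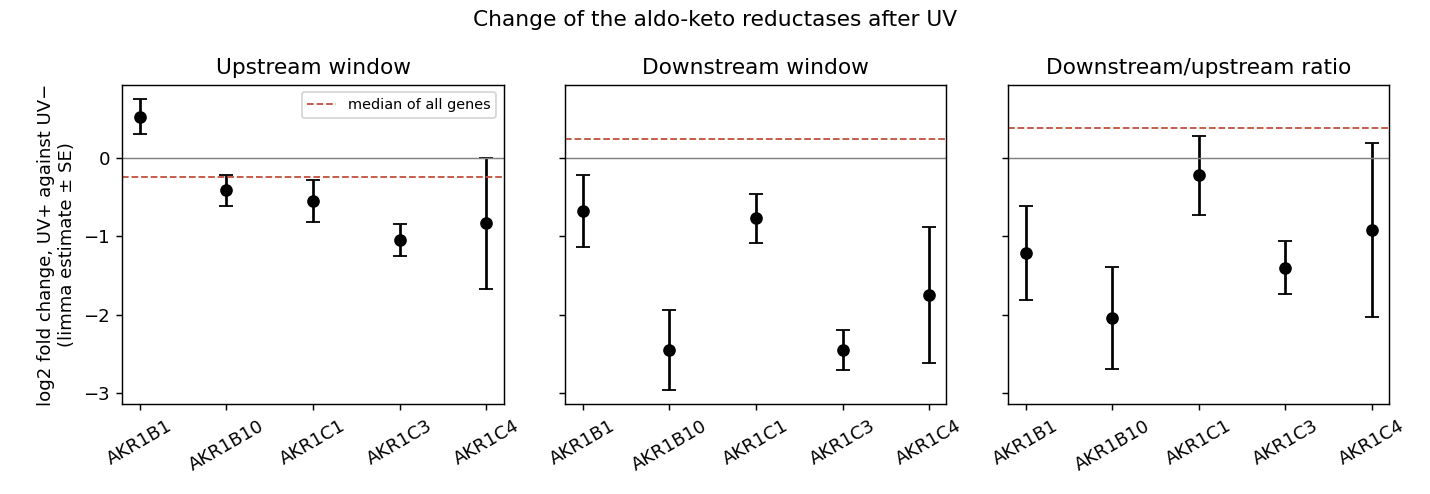
Log2 change of UV+ against UV− from limma (points) with its standard error (bars) for the upstream window, the downstream window and their ratio, for the 5 genes on the x axis. The dashed line is the median of all 4208 genes. The change of the ratio was lowest for AKR1B10 with −2.04 and AKR1C3 with −1.40, and AKR1B1 was the 1 member with a positive upstream value (0.53).

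Paralogs were also compared within each library, where the size factor cancels apart from the pseudocount. In UV− the mean log2 ratio was −0.03 ± 0.84 for AKR1C4, −3.03 ± 0.07 for AKR1C1, −3.56 ± 0.25 for AKR1B1, −4.21 ± 0.31 for AKR1C3 and −6.62 ± 0.15 for AKR1B10 (mean ± SD, n = 2). In UV+ it was −0.95 ± 1.89, −3.26 ± 1.01, −4.77 ± 0.18, −5.61 ± 0.02 and −8.66 ± 0.51 in the same order of genes, and the order of the means did not change. No neighbors in this order overlapped between their libraries of a condition, although AKR1C4 rests on few reads. The place of AKR1C1 is uncertain, since its downstream window is all annotated exon and has a near-copy in AKR1C2. Identical stretches elsewhere were also more frequent in its downstream than in its upstream window. The log2 ratio of AKR1B10 minus that of AKR1C3 was −2.53 and −2.3 in the UV− libraries and −2.71 and −3.4 in the UV+ libraries, although both had over 1000 normalized upstream reads in every library. AKR1B10 minus AKR1C1 gave −3.53 and −3.65 in UV−, and −5.76 and −5.05 in UV+, with the same uncertainty of AKR1C1.

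AKR1C3 and AKR1B10 exchanged their order in reads of the upstream window. These windows hold 226 exonic nt in AKR1C3 and 366 in AKR1B10, so that an exchange in the amounts of their spliced RNA is not shown. The log2 difference of upstream reads, AKR1B10 minus AKR1C3, was −0.43 and −0.50 in the UV− libraries and 0.15 and 0.21 in the UV+ libraries. Downstream, the same difference had a mean of −2.88 (SD 0.11) before and −2.88 (SD 0.45) after UV. AKR1B1, the member with a positive upstream value, had a log2 difference to AKR1C3 of −4.28 and −4.09 in UV− and of −2.79 and −2.41 in UV+. Of the 10 pairs of members, the UV+ and UV− differences did not overlap in 6 for the ratio, in 5 upstream and in 5 downstream. Each of these had p = 0.333 in a two-sided exact permutation test, the smallest that 2 libraries against 2 allow, and adjusted over the 10 pairs p = 0.556 for the ratio and p = 0.667 for either window. A difference between paralogs in their response to UV can therefore not be shown by this test.

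AKR7A2, which reduces succinic semialdehyde, was the only one of 13 other genes of the superfamily with a row. Upstream it had 5 and 7 reads in UV− and 6 and 0 in UV+, beside 5 and 8 downstream reads in UV− and 4 and 1 in UV+. It met the read minimum only through UV−, which favors lower reads in UV+. Its ratio had a log2 change of 0.17 (SE 0.96, unadjusted p = 0.86, limma), which these few reads leave undetermined. Of 52 other carbonyl reductases and dehydrogenases 12 had a row, of which 2 had a lower and 2 a higher ratio at an unadjusted p under 0.05 (2.4% and 11% of all genes), with a median log2 change of −0.64 (0.38 over all genes). The lower ones were ALDH1A1, a retinaldehyde dehydrogenase (−3.46, SE 0.34), and NQO1, a quinone reductase driven by NRF2 (−1.29, SE 0.59, unadjusted p = 0.0498, limma). NQO1 had 26 and 35 downstream reads in UV− and 20 and 10 in UV+, at a log2 change of −0.0056 upstream. The higher ones were TP53I3, a quinone oxidoreductase induced by p53 (1.69, SE 0.53), and ADH5, which oxidizes formaldehyde bound to glutathione (2.71, SE 0.93). ADH5 had 3 and 2 downstream reads in UV− and 12 and 9 in UV+. It met the read minimum only through UV+, which favors a higher ratio there. Upstream, 2 of the 12 rose and 0 fell, and downstream 1 rose and 2 fell, at an adjusted p under 0.05. Of all genes, 11.7% rose and 20.7% fell upstream, and 11.7% rose and 9.41% fell downstream.

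Of 37 enzymes of steroid and prostanoid metabolism 8 had a row, and 1 had a lower and 0 a higher ratio at an unadjusted p under 0.05 (2.4% and 11% of all genes), with a median log2 change of −0.23. The lower one was HSD17B12, which acts in fatty acid elongation (−1.06, SE 0.46, unadjusted p = 0.043, limma), with 44 and 60 downstream reads in UV− and 25 and 28 in UV+. SRD5A1, a steroid reductase, had −1.82 (SE 0.86), HSD17B14, a hydroxysteroid dehydrogenase, −1.73 (SE 0.89), and PTGS2, the inducible cyclooxygenase, −0.61 (SE 0.46), and these did not pass. The other 4 also did not pass and had positive values, HSD17B10 0.15 (SE 0.80), HSD17B1 0.55 (SE 0.94), PLA2G4A 0.93 (SE 0.91) and HPGD 1.13 (SE 0.98); they are named beyond the rule, after their values were seen. Of the 8, 2 fell upstream and 1 fell downstream at an adjusted p under 0.05, and 0 rose, beside the shares of all genes given above. SRD5A1 met the read minimum only through UV−, with 12 and 12 downstream reads there and 3 and 3 in UV+. HSD17B1 met it only through UV+, with 6 and 5 downstream reads there and 1 and 2 in UV−.

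The genes most like each member were found by the Euclidean distance over both windows in the 4 libraries, 8 values on the log2 scale. TUBA1B (0.84), EMC10 (1.31) and DSTNP2 (1.34) were nearest to AKR1B1. TM4SF20 (1.13), HSD17B12 (1.63) and SLC38A2 (1.81) were nearest to AKR1C1, and NEURL2 (0.91), IRAK1BP1 (1.35) and SNORD116-1 (1.39) to AKR1C4. The abundant members had more distant neighbors, CA12 (2.33), ALDH1A1 (2.64) and PON2 (3.48) for AKR1C3, and TM4SF1 (2.36), TMSB10 (2.57) and HSP90B1 (2.79) for AKR1B10. Among these last 6, the log2 change of the ratio ranged from −0.12 in CA12 to −3.46 in ALDH1A1. Of the 43 other genes with a mean of at least 1000 normalized upstream reads, 6 had a lower and 3 a higher ratio at an unadjusted p under 0.05 (2.4% and 11% of all genes), and their median log2 change was −0.13.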

How the data were processed

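The authors used cutadapt for trimming and TopHat2 for alignment to hg19, kept reads of high mapping quality with SAMtools and counted them with featureCounts (R 3.4.0) in 500-nt windows. The deposited signal values are these reads divided by 1 size factor per library, and 100% of the values came out whole (within 1e-06 read) once multiplied by it. The deposited table also holds the authors' fold changes, test statistics and p-values, which were not used. The 4208 genes are those left after the authors' read minimum and their removal of genes with an overlapping downstream region. limma 3.58.1 (R 4.3.3) was fitted over all of them on log2 values with a pseudocount of 1, without a further filter. The variance trend followed the mean level of the window, and for the ratio that of the downstream window. A fold change on this scale understates changes of low values. Alternatives used edgeR 4.0.16, DESeq2 1.42.0, other pseudocounts, filters and scalings, a replicate block and left-out libraries. The tests were tried on simulated reads in which only the upstream window changed, so that the recovery of downstream changes was not tried. Windows were checked against GRCh37 and GENCODE 44 with BLAST 2.17.0. Genes named beside the members are other aldo-keto reductases, up to 4 of each list with the smallest p of the ratio, and the 3 nearest genes of each member. Members and lists were chosen with earlier results of these data known. Python 3.11.15 with scipy 1.17.1 was used.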

Additional observations from a re-analysis of the deposited data

How the results depend on the processing

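AKR1B10 and AKR1C3 were lower in UV+ in both windows and in the ratio under every alternative run for them. The ratio of AKR1B1 passed an unadjusted p of 0.05 with a pseudocount of 5 (log2 change −1.07, likewise below), edgeR (−1.22), DESeq2 (−1.23) and a variance trend over the mean of both windows (−1.21), and that of AKR1C3 no longer did without a trend or with one over the mean ratio (−1.40 in both), which left 1 member lower instead of 2. Both other trends were added after seeing the data. At an adjusted p, AKR1C3 passed with a mean of at least 10 (−1.40, 1 member), AKR1B10 with the trend over both windows (−2.04, 1 member), and both with DESeq2 without a library term (−2.15 for AKR1B10 and −1.42 for AKR1C3, 2 members) but neither with one (−2.18 and −1.42, 0 members). Upstream, AKR1C3 no longer passed without a trend (−1.05, 0 members).

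Leaving out 1 library at a time moved the ratio of AKR1B10 between −2.40 and −1.68 and that of AKR1C3 between −1.62 and −1.18, with 1 or 2 members lower at an unadjusted p. A lone library was assumed to vary like the other condition. Upstream, AKR1C1 ranged from −1.01 to −0.0808 and AKR1C3 from −1.16 to −0.95, with 0 or 1 member lower. Downstream, AKR1B10 ranged from −2.84 to −2.06 and AKR1C3 from −2.57 to −2.33, with 0 members lower in each case.

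The replicate numbers mark no shared batch in the labels, and libraries of the same number hardly deviated together (r across 1538 genes 0.0413 for the ratio, 0.0618 upstream and 0.0705 downstream). With the number as a replicate block, the upstream values of AKR1B1 (0.53) and AKR1C1 (−0.55) also passed, so that 2 members were lower and 1 higher. Over all genes, 985 were lower and 569 higher upstream with this block, beside 872 and 492 without it. No other call of a member at an adjusted p changed. At an unadjusted p, AKR1B10 and AKR1C1 were also lower upstream with the block.

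Over all genes, 101 lower ratios at an unadjusted p became 44 with a mean of at least 10 and 67 with DESeq2 and a library term, and 464 higher ones became 245 and 268. At an adjusted p, 1 lower and 6 higher ratios became 7 and 36 with a pseudocount of 5, 7 and 57 with a mean of at least 10, 0 and 0 without a trend, 3 and 21 with edgeR, 11 and 37 with DESeq2, 3 and 13 with its library term, 5 and 22 with the block, 0 and 0 with the trend over the mean ratio, and 3 and 18 with that over both windows. Upstream, 872 lower and 492 higher genes became 574 and 241 without a trend and 562 and 322 with DESeq2. Downstream, 396 lower and 493 higher genes became 216 and 239 without a trend and 126 and 205 with DESeq2, and 237 were lower with a mean of at least 10. Without 1 library there were 36 to 270 lower and 217 to 568 higher ratios at an unadjusted p, 0 to 820 lower and 1 to 280 higher genes upstream, and 8 to 106 lower and 7 to 105 higher genes downstream. A filter at a mean of 10 left AKR1C4 out, and DESeq2 gave it no adjusted p for the ratio and downstream.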
